A study of Mus musculus with 4 samples.

Results

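A set of 26 genes was higher in 1 of the 2 *rd7* retinal libraries than in the other and than in both wild-type libraries. The genes were selected on the FPKM values themselves. A gene had to have an accepted estimate in all 4 libraries and an FPKM of at least 1.5 in *rd7* replicate 2. That value had to be at least 1.8 times the value in *rd7* replicate 1 and in each wild-type library, and the wild-type values had to lie within 1.5-fold of each other. *Gfap*, *Edn2*, *Fgf2*, *C4b* and symbols starting with Cry, Snor or Mir were left out. Of 21833 loci with accepted estimates, 34 met the values, 8 of them fell among the left-out symbols, and 26 remained. Among the 11925 loci at 1.5 FPKM or more in *rd7* replicate 2, the 26 genes were 0.218%. FPKM is the number of sequenced fragments normalised to transcript length and to the mapped fragments of the library. Because all 4 libraries entered the choice, the values of the 26 genes are given as a description, and the intervals and genotype calls printed for them support nothing about the set. The question asked of them was whether they form an injury response.

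The *rd7* strain is mutant for *Nr2e3*, a regulator of photoreceptor fate that represses cone genes in rods, and was compared with C57BL/6J wild-type mice; the labels give C57BL/6J as the strain of all 4 libraries. Each genotype had 2 libraries, and each library pooled 8 retinas from 2 female and 2 male mice at 3 weeks of age (21 days). No further treatment separated the groups, and each value is therefore an average over several animals, in which 1 strongly affected retina and a small rise in all retinas cannot be told apart. How the animals of each pool were assigned, and whether the pools were dissected on separate days, is not given in the sources used here. *Nr2e3* itself stood at 1589 FPKM in *rd7* replicate 2, 2493 in the other *rd7* pool, and 384 and 394 in the wild-type pools. It separated the genotypes as labelled, with the lower *rd7* value in the library where the 26 genes were high. Low values of genes with a single annotated transcript put the depth at between 38300000 and 39700000 reads per library. Defining rod, cone, bipolar, amacrine, ganglion, horizontal and Müller cell genes were present in all 4 libraries, and the 8 rod genes summed to between 9313 and 13310 FPKM.

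Glia are among the first cells to answer injury to the retina. Müller cells, the radial glia that span the retina, raise intermediate filaments, protease inhibitors, metallothioneins and growth factors, in large part through cytokines that signal by the gp130 receptor, JAK kinases and STAT3. Stressed neurons switch on transcription factors of the immediate early class, and microglia and the complement system react to damaged cells. In photoreceptor degenerations, endothelin 2 (*Edn2*) and *Fgf2* are signals known to come from stressed retina and to act on Müller cells.

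Promoters are shown for 4 of the genes, those with a match to the AP-1 or STAT motif, factors that act in injury responses. The genes are *Mt2*, a zinc-binding metallothionein, *Gbp2*, a GTPase induced by interferon, *Trem2*, a receptor of microglia, and *Glycam1*, a ligand of L-selectin. RefSeq (GRCm38.p6) gave the 250 bases before an annotated start for 19 of the 26 genes and for 27025 genes in all. Each sequence is written 5′ to 3′ toward the gene. In *Mt2* (chr8:94172368-94172617, plus strand) the capitals mark the cores of metal-responsive elements, TGCACNC and TGCGCNC, and the AP-1 motif TGANTCA. In *Gbp2* (chr3:142620413-142620662, plus strand) and *Trem2* (chr17:48346151-48346400, plus strand) they mark TGANTCA. In *Glycam1* (chr15:103565082-103565331, minus strand) they mark the STAT motif TTCNNNGAA.
Mt2: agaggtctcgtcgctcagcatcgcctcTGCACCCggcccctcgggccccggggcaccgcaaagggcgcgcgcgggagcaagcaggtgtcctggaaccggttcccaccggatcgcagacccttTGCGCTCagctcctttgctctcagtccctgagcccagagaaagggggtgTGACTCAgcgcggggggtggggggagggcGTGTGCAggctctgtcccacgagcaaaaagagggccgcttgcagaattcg
Gbp2: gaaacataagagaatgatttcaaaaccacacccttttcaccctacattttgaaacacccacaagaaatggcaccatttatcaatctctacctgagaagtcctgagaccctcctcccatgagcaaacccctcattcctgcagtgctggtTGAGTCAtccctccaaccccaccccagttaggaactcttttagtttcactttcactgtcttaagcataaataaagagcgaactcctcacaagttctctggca
Trem2: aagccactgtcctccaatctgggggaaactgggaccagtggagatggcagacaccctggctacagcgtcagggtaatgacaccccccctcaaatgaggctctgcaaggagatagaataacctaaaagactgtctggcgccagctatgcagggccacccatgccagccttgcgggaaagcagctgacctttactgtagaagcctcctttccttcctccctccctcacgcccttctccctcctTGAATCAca
Glycam1: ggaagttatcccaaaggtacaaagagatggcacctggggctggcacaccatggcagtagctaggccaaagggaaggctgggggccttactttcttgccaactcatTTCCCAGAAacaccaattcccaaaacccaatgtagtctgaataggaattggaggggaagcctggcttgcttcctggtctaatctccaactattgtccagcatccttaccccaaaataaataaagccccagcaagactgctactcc

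Both strands were searched in every promoter, and motifs were allowed to overlap. The AP-1 motif was in 3 of the 19 promoters (15.8%) and in 7.82% of all promoters. The STAT motif was in 1 (5.26%), against 8.13% of all. The C/EBP motif TTGCNNAA was in *Htr5a* and *Mt2* (10.5%), against 10.8%, and the cAMP-responsive motif TGACGTCA in *Rpl26* (5.26%), against 1.77%. TGCACNC was in 5 promoters (*Btc*, *E2f6*, *Htr5a*, *Mt2* and *Tmem28*; 26.3%), against 11.8%, and TGCGCNC in 3 (*Atf3*, *Mt2* and *Nudt6*; 15.8%), against 14.0%. Motifs of the heat shock factor, the serum response factor and NF-κB, searched as 1 fixed form each, were in 0 of the 19 and in 0.514%, 0.074% and 0.159% of all promoters. No motif was common to the set. In *Mt2* the AP-1 match spanned bases -79 to -73 from the start, in *Gbp2* -102 to -96 and in *Trem2* -9 to -3, and the STAT match of *Glycam1* spanned -145 to -137.

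**Figure D1:**
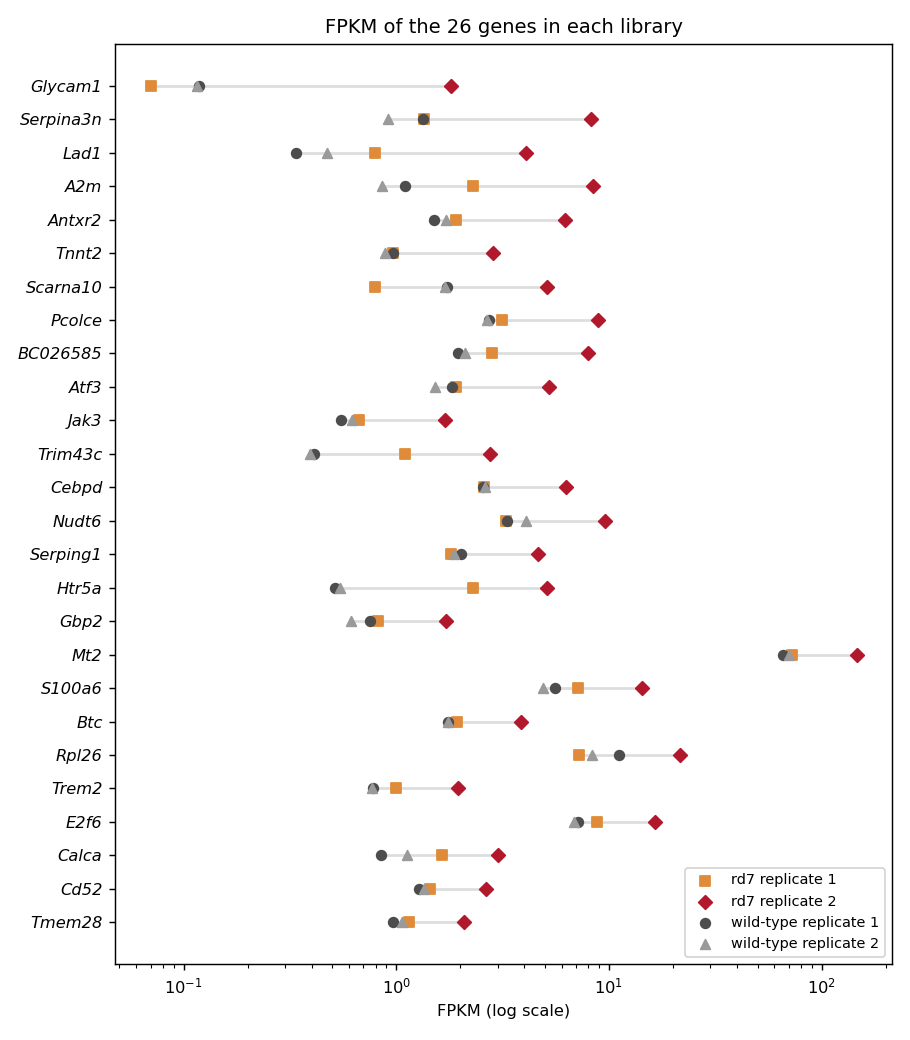
FPKM of each of the 26 genes (rows, ordered by the ratio of *rd7* replicate 2 to the next highest library) in the 4 libraries, on a log axis; each point is 1 library and the grey line spans the 4 values. The value of *rd7* replicate 2 lies to the right in every row, as the rule requires, while the other 3 libraries lie close together in most rows and spread apart in *Htr5a*, *Trim43c* and *A2m*.

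Among the genes known from reactive Müller cells, *Serpina3n*, a secreted inhibitor of serine proteases that marks reactive glia, had the largest ratio within the set. Among the genes left out by name, *Edn2* had a larger one, 6.73. In mm9, the build of all gene positions given here apart from the promoters, *Serpina3n* spans 105644918 to 105652539 on chromosome 12. The FPKM of *Serpina3n* was 8.19 in *rd7* replicate 2, against 1.35 in *rd7* replicate 1 and 1.34 and 0.917 in the wild-type libraries. The high value was 6.06 times that of the other *rd7* pool, which itself sat level with wild-type replicate 1. *A2m* (chromosome 6, 121586191 to 121629256), a broad protease inhibitor of the acute phase, stood at 8.39 FPKM, against 2.31 in the other *rd7* pool and 1.11 and 0.862 in wild-type retinas. Here the other *rd7* pool was also above wild-type, at 2.34 times its mean. *Cebpd* (chromosome 16, 15887379 to 15889638), a transcription factor induced by cytokines and a target of STAT3, stood at 6.30 FPKM against 2.58 in the other *rd7* pool and 2.55 and 2.60 in wild-type retinas. Those 3 libraries were nearly equal, so that *rd7* replicate 2 alone stood apart, at 2.42 times the next. GENCODE vM1 lists this locus as a pseudogene, and it overlaps *2310008H04Rik* on the opposite strand (2.03 FPKM in *rd7* replicate 2 and at most 1.45 elsewhere).

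*S100a6*, a calcium-binding protein of reactive glia (chromosome 3, 90416816 to 90418336), was at 14.3 FPKM, against 7.14 in the other *rd7* pool and 5.57 and 4.91 in wild-type retinas. The metallothionein *Mt2* (chromosome 8, 96696518 to 96697467), which binds zinc and is induced by metals, glucocorticoids and STAT3, was the most abundant of the 26 genes. It reached 147 FPKM in *rd7* replicate 2, against 72.6, 65.6 and 70.2 in the remaining libraries. Its neighbour *Mt1*, 5521 bases away, moved in the same direction by less, with 254 FPKM against 142, 166 and 167, a ratio of 1.52 that fell short of the rule. *Mt3*, the brain-enriched metallothionein on the same stretch of chromosome 8, did not share the pattern. Its FPKM was 51.8 in *rd7* replicate 2 and between 51.4 and 54.8 in the other libraries.

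*Atf3*, a stress-induced transcription factor that is low in healthy neurons and rises after axon injury, was the immediate early gene of the set. It lies on chromosome 1 from 192994176 to 193007212. It stood at 5.21 FPKM, against 1.91 in the other *rd7* pool and 1.82 and 1.52 in wild-type retinas. The other 3 libraries did not separate by genotype. *Fos*-family and *Egr* genes were not in the set. *Egr1* went the other way between the *rd7* pools, at 10.8 FPKM in replicate 2 and 20.5 in replicate 1, with 7.82 and 7.24 in wild-type retinas.

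Genes of immunity came next. *Serping1*, the C1 inhibitor of the complement cascade (chromosome 2, 84605517 to 84615586), had an FPKM of 4.62 in *rd7* replicate 2 and of 1.81, 2.01 and 1.87 in *rd7* replicate 1 and the wild-type libraries. The other *rd7* pool was the lowest of the 4. *Gbp2*, a GTPase induced by interferon (chromosome 3, 142283627 to 142300972), stood at 1.72 FPKM against 0.825, 0.753 and 0.613. *Jak3*, a cytokine receptor kinase of leukocytes (chromosome 8, 74200282 to 74214475), had 1.70 FPKM against 0.670, 0.550 and 0.620. Both were low genes, with every other library under 1 FPKM. *Jak3* overlaps *Insl3* on the same strand, and *Insl3* did not follow it (0.699 FPKM in *rd7* replicate 2 and 1.26 in wild-type replicate 1).

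Microglia were represented by *Trem2*, their lipid-sensing receptor (chromosome 17, 48485726 to 48491598). It stood at 1.94 FPKM, against 0.999 in the other *rd7* pool and 0.777 and 0.766 in wild-type retinas. *Cd52*, a surface glycoprotein of leukocytes (chromosome 4, 133649453 to 133650988), was at 2.65 FPKM against 1.45, 1.27 and 1.35. *Cd52* lies just inside the fold threshold, at 1.83 times the next library. In such bulk samples, more cells of a type and more RNA per cell cannot be told apart.

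Secreted factors, matrix and adhesion genes made a further group. *Glycam1* (chromosome 15, 103393193 to 103395509), a mucin-like ligand of L-selectin, had the largest ratio of all, 15.3 over the next library. It stood at 1.81 FPKM, against 0.0699 in the other *rd7* pool and 0.118 and 0.116 in wild-type retinas. About 29 reads lay behind the high value and 2 behind the next, which gives the ratio an exact 95% counting interval from 3.67 to 125. The size of this ratio is thus poorly known. *Antxr2*, a receptor for collagen and laminin that anthrax toxin also uses (chromosome 5, 98313707 to 98459981), stood at 6.24 FPKM against 1.91, 1.498 and 1.72. *Pcolce*, which enhances the processing of procollagen (chromosome 5, 138046335 to 138052632), stood at 8.87 FPKM against 3.14, 2.72 and 2.66. Both were about level in the other *rd7* pool and in wild-type retinas, at 1.19 and 1.17 times the wild-type mean.

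*Btc*, betacellulin, a ligand of the EGF receptor (chromosome 5, 91786287 to 91831939), had 3.88 FPKM in *rd7* replicate 2 against 1.94, 1.75 and 1.75. *Calca*, the gene of calcitonin and the neuropeptide CGRP (chromosome 7, 121774992 to 121779871), had 3.00 FPKM against 1.64 in the other *rd7* pool and 0.847 and 1.13 in wild-type libraries. *Calca* thus rose in steps from wild-type through the other *rd7* pool.

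*Lad1* and *Tnnt2* lie beside each other on chromosome 1, 3044 bases apart on the same strand. *Lad1*, ladinin, a protein of epithelial anchoring filaments (137715175 to 137729918), stood at 4.06 FPKM, against 0.795 in the other *rd7* pool and 0.337 and 0.470 in wild-type retinas. *Tnnt2*, the troponin T of cardiac muscle (137732963 to 137748838), had 2.86 FPKM against 0.965, 0.965 and 0.888. *Tnni1*, on the other side of *Lad1* at a distance of 7608 bases, was lowest in the library where this pair was highest, at 0.115 FPKM against values between 0.344 and 0.432. Whether reads of *Lad1* and *Tnnt2* come from joined transcripts was not tested.

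A further 4 genes have other roles or none that is stated here. *Htr5a*, a serotonin receptor (chromosome 5, 28168487 to 28181626), had 5.09 FPKM in *rd7* replicate 2 and 2.30 in the other *rd7* pool, both far above 0.518 and 0.543 in the wild-type libraries. The other *rd7* pool was 4.34 times the wild-type mean, the largest such ratio among the 26. *E2f6*, a repressor of the E2F family (chromosome 12, 16817771 to 16833549), stood at 16.4 FPKM against 8.82, 7.16 and 6.88. *Tmem28* (chromosome X, 97016408 to 97041684) was closest to the threshold, with 2.09 FPKM against 1.15, 0.963 and 1.07. *BC026585* (chromosome 1, 159388713 to 159418864) had 7.98 FPKM against 2.83, 1.96 and 2.10. These last 3 genes were each a little higher in the other *rd7* pool than in both wild-type libraries.

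Beside *Cebpd* and *Jak3*, whose overlaps are given above, the reads of 4 genes may belong to other copies or to overlapping or adjacent genes. *Nudt6* (chromosome 3, 37303906 to 37318512), known as the antisense partner of *Fgf2*, had 9.57 FPKM in *rd7* replicate 2 against 3.30, 3.30 and 4.07. The files place it 153 bases from *Fgf2* on the opposite strand, the library protocol names no step that marks strand, and reads of the pair may be counted on either gene. *Rpl26*, a ribosomal protein gene whose family has processed copies across the genome (chromosome 11, 68715068 to 68718036), had 21.6 FPKM against 7.27, 11.1 and 8.33. Its wild-type values differed by 1.33-fold, so that its level is uncertain. *Trim43c* (chromosome 9, 88734002 to 88743028) had 2.75 FPKM against 1.10, 0.410 and 0.393, whereas its close copies *Trim43a* and *Trim43b* reached only 1.21 and 1.12 times the next library. *Scarna10*, a small nuclear RNA inside the *Ncapd2* locus (chromosome 6, 125136379 to 125136449), had 5.10 FPKM against 0.798, 1.73 and 1.69. The interval given for it is barely longer than the reads of 50 bases, whereas GENCODE vM1 gives it 325 exonic bases. Its FPKM is unreliable.

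The genes left out by name followed the same shape. *Edn2* had an FPKM of 9.001 in *rd7* replicate 2 against 0.874, 1.18 and 1.34, *Fgf2* 7.58 against 1.83, 1.75 and 1.82, and *C4b* 4.62 against 0.953, 0.811 and 0.811. *Gfap*, the intermediate filament of reactive glia, had 28.1 against 10.3, 7.59 and 8.14. All 4 met the rule on their values. The other 4 left-out symbols were *Snord* genes, with at most 2.40 FPKM. Beyond the left-out symbols, *Slit3* and *Amd1* met every condition but the limit on the wild-type pair. *Slit3*, a guidance ligand of Robo receptors, stood at 3.58 FPKM, against 0.537 in the other *rd7* pool and 0.0518 and 0.0788 in wild-type retinas. *Amd1* had 4.41 FPKM, against 0.00149 in the other *rd7* pool and 1.81 and 0.000405 in wild-type retinas. With wild-type values so far apart, its FPKM is unreliable.

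At the edge of the fold threshold, *Calca*, *Cd52* and *Tmem28* lay just inside, at 1.83, 1.83 and 1.82 times the next library. Just outside were *Rfx2* at 1.77, *Stat3* at 1.76 and *Klhl29* at 1.70. *Stat3*, the transcription factor downstream of gp130, thus missed the set by a narrow margin. *Stat3* had 32.8 FPKM against 18.6 in the other *rd7* pool and 13.0 and 13.3 in wild-type retinas.

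Apart from *Glycam1*, the estimated counting error of the ratios was moderate. For the other 24 genes with an estimate of reads (none was made for *Scarna10*), at least 99 reads lay behind the high value and at least 34 behind the next library. The lowest lower bound of their exact 95% counting intervals was 1.27, for *Cd52*. These intervals cover counting error only and not the spread between pools, and they were computed for genes chosen for a high ratio. Reads were estimated from the joined exons of all annotated transcripts. For genes with several transcripts the reads may thus be overstated and the intervals too narrow. The median ratio to the next library was 2.38, and 5 of the 26 genes exceeded 3-fold.

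In *rd7* replicate 1 the 26 genes ranged from 0.466 times the wild-type mean (*Scarna10*) to 4.34 times (*Htr5a*), with *Trim43c* at 2.75, *A2m* at 2.34 and *Lad1* at 1.97. This library was above both wild-type values for 20 genes, below both for 5 and between them for 1. Among all 11925 loci at this level, *rd7* replicate 1 was above both wild-type values in 67.1%. The median difference of *rd7* replicate 1 from the wild-type mean was 0.20 on the log2(FPKM + 0.1) scale for the 26 genes and 0.16 for all loci. The difference between the *rd7* pools had a median of 1.28 for the 26 genes, which the rule sets, and of -0.01 for all loci. The rule also caps how high *rd7* replicate 1 can be.

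**Figure D2:**
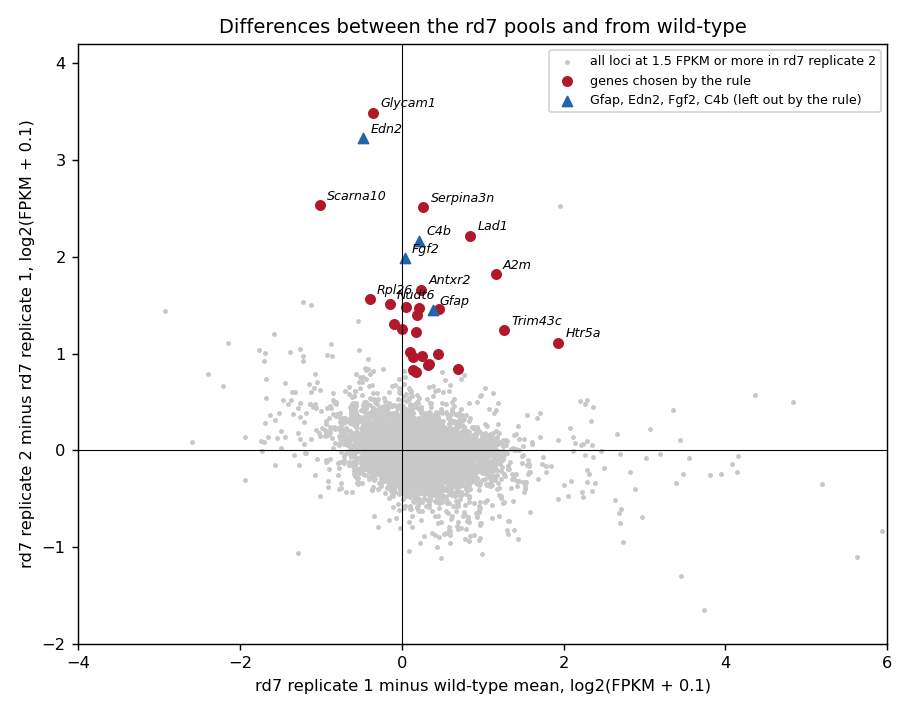
Difference between *rd7* replicate 2 and *rd7* replicate 1 (vertical axis) against the difference of *rd7* replicate 1 from the wild-type mean (horizontal axis), both on the log2(FPKM + 0.1) scale; each point is 1 locus with at least 1.5 FPKM in *rd7* replicate 2, and 3 loci lie outside the axes. The 26 genes (red) and the 4 genes left out by name (blue triangles) lie above the cloud, most of them near 0 on the horizontal axis, with *Htr5a*, *Trim43c* and *A2m* to the right.

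In the limma comparison of *rd7* with wild-type libraries at an FDR of 5%, which pools both *rd7* libraries, 23 of the 26 genes passed the filter of a mean FPKM of at least 1. Of these, 5 were called higher (*A2m*, *Calca*, *Htr5a*, *S100a6* and *Trim43c*) and 0 lower. Among all 12655 genes tested, 37.6% were called higher and 8.8% lower. The rule used this contrast and asks for a wide spread between the *rd7* libraries, so nothing is read from the count.

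When the same rule was applied with each library in turn as the high one, *rd7* replicate 2 gave 26 genes, *rd7* replicate 1 gave 22, wild-type replicate 1 gave 3 and wild-type replicate 2 gave 1. Of the 22 genes high in *rd7* replicate 1, 1 was on an injury list (*Egr1*), and of the 26 genes 8 were, where 1.26% of all loci at 1.5 FPKM or more in *rd7* replicate 2 were on one. The 22 held the endothelial genes *Cdh5* and *Cldn5*, with *Cldn5* at 16.2 FPKM in *rd7* replicate 1 and between 7.56 and 8.62 in the other libraries. Endothelial and pericyte markers summed to 98.4 FPKM there, 74.2 in the other *rd7* pool, and 56.1 and 60.8 in wild-type retinas. These counts describe the libraries and were not tested, and the injury lists were drawn up with earlier results of these data known.

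**Figure D3:**
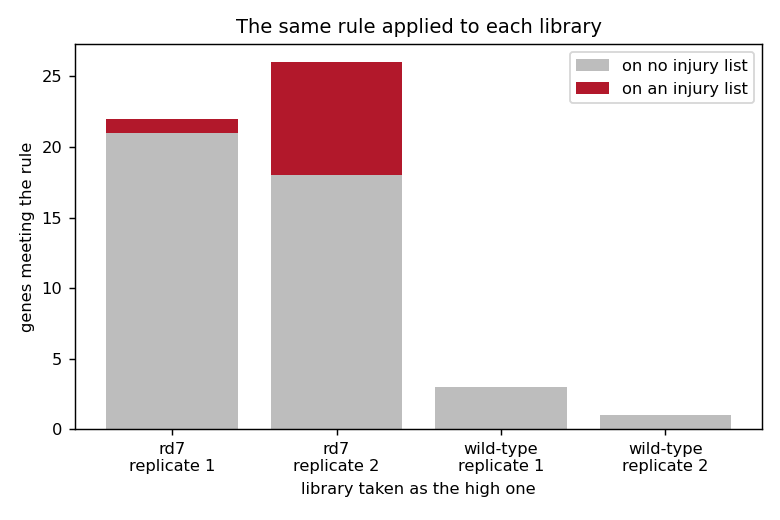
Number of genes meeting the rule (vertical axis) when each of the 4 libraries is taken as the high one (horizontal axis), after removal of the same left-out symbols; the red part of a bar counts genes on an injury list. The bars reach 22, 26, 3 and 1, and the red part is 1, 8, 0 and 0.

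To ask how far the 26 genes overlap with known injury responses, 12 lists were used, which cover immediate early genes, reactive Müller cells, gp130 signalling, heat shock, the integrated stress and unfolded protein responses, inflammatory mediators, microglia and macrophages, complement, interferon, p53 and apoptosis, axon injury and hypoxia. Of the 26 genes, 8 (30.8%) were on at least 1 of them, while 1.26% of all 11925 loci at this level were. The 8 genes were *Serpina3n*, *A2m*, *Cebpd*, *S100a6*, *Atf3*, *Serping1*, *Gbp2* and *Trem2*. Seen from the lists, 5.33% of the 150 listed genes at this level met the rule, against 0.218% of all loci. The lists were drawn up with earlier results of these data known, so both contrasts are descriptions and were not tested. *Jak3*, *Cd52* and *Mt2*, whose roles lie close to these lists, were on none of them, although *Mt2* was on a list of glucocorticoid targets. The remaining 18 of the 26 genes were on no injury list.

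Of the 8 genes, 4 were on the reactive Müller cell list and 1 on the complement list. With *Gfap*, *Edn2*, *Fgf2* and *C4b*, which the rule leaves out, added, 8 of the 21 reactive Müller cell genes at this level met the values, and 2 of the 7 complement genes did, with *C4b* on both lists. Immediate early and axon injury genes shared 1, *Atf3*, and the interferon and microglia lists had 1 each. The values were met by 0 of the 18 heat shock genes, the 19 genes of the integrated stress and unfolded protein responses, the 14 p53 and apoptosis genes, the 14 gp130 signalling genes, the 13 hypoxia genes and the 4 inflammatory mediators at this level. With 0.218% of all loci meeting the rule, a count of 0 in lists of this size says nothing about them.

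Listed genes that did not meet the rule were read by how often *rd7* replicate 2 was the highest library. That library was the highest of the 4 libraries in 35.7% of all loci at this level. It was so for all 5 remaining complement genes, for 9 of 10 genes of microglia and macrophages, and for 11 of 13 reactive Müller cell genes. The 9 microglial genes were the complement subunits *C1qa*, *C1qb* and *C1qc* with *Cd68*, *Csf1r*, *Ctss*, *Cx3cr1*, *Fcer1g* and *Tyrobp*. *Tyrobp*, the signalling partner of *Trem2*, had 5.17 FPKM in *rd7* replicate 2 against 3.39, 3.01 and 3.27. Its ratio to the next library was the largest of these 9, at 1.52. The smallest was that of *Cx3cr1*, at 1.01, with 1.70 FPKM against 1.68, 1.56 and 1.55. *P2ry12*, the remaining microglial gene, had 1.57 FPKM against 1.61 in the other *rd7* pool and 0.780 and 0.813 in wild-type retinas. The complement and microglia lists share the *C1q* genes. The gp130 list had 9 of 14 genes highest in this pool, among them the receptor subunits *Osmr* (2.53 FPKM against 1.69, 0.811 and 0.828) and *Il6st* (25.6 against 19.7, 14.4 and 14.7). *Osmr*, *Il6st* and *Stat3* were also higher in the other *rd7* pool than in wild-type retinas, so that their values stepped up from wild-type to *rd7* replicate 1 to *rd7* replicate 2.

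Of the interferon genes, 10 of 18 were highest in *rd7* replicate 2. *H2-D1*, a class I antigen-presenting molecule, had 24.4 FPKM against 15.4, 12.7 and 11.7, and *B2m*, its light chain, 22.8 against 15.6, 14.5 and 14.8. Several interferon genes also differed between the wild-type pools, such as *Oasl2* with 3.47 and 2.00 FPKM. Heat shock genes had the same share, 10 of 18, and hypoxia genes 8 of 13, among them the hexokinase *Hk2* (196 FPKM against 122, 83.9 and 78.6). The integrated stress and unfolded protein responses had 9 of 19, inflammatory mediators 2 of 4 and immediate early genes 6 of 18, or 33.3%, near the 35.7% of all loci. The lowest shares were 1 of 6 axon injury genes and 2 of 14 p53 and apoptosis genes. *Bcl3*, a partner of NF-κB that STAT3 induces, was 4.50 times the next library but had only 1.21 FPKM in *rd7* replicate 2, under the minimum. The chemokine genes *Ccl3* and *Ccl4* stood at 0.264 and 0.222 FPKM there, too low to be read.

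**Figure D4:**
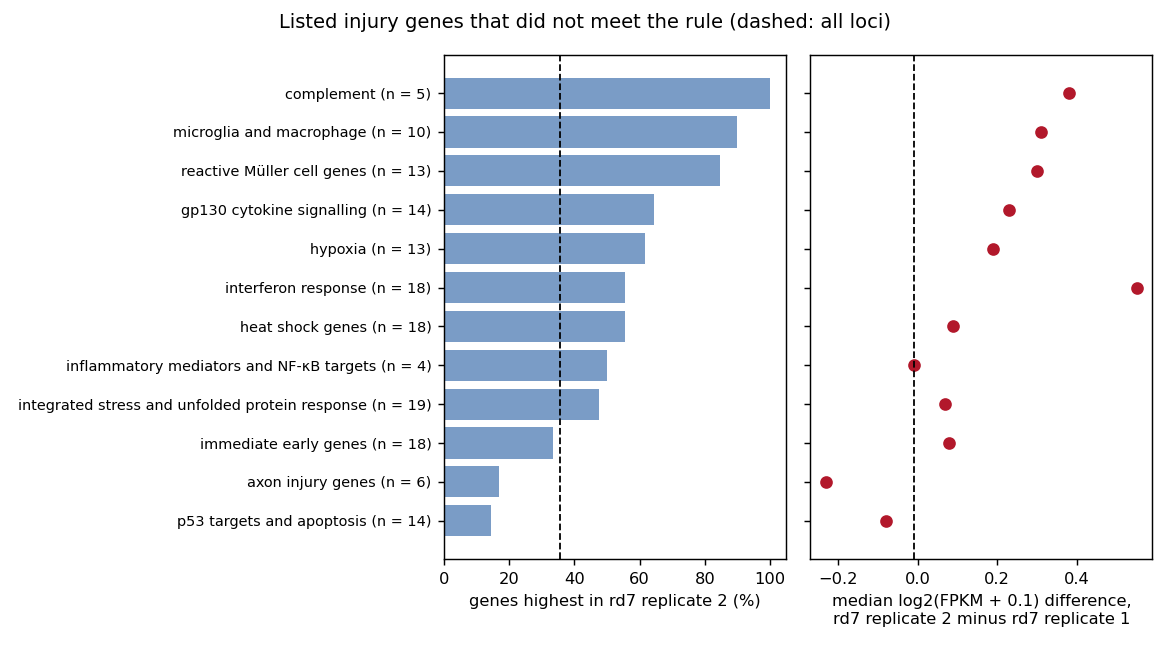
For each injury list, genes at 1.5 FPKM or more in *rd7* replicate 2 that did not meet the rule (their number n beside the name): the share that was highest in *rd7* replicate 2 (left, bars from 0, in percent) and the median difference of *rd7* replicate 2 from *rd7* replicate 1 on the log2(FPKM + 0.1) scale (right, points); dashed lines give the values for all loci. Complement, microglia and reactive Müller cell genes lie well to the right of the dashed line in both panels, and p53 and axon injury genes to its left. The minimum level was asked of *rd7* replicate 2, the library whose rank is shown.

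The differences behind these shares were small. Their median between the *rd7* pools was 0.30 for the 13 reactive Müller cell genes, 0.31 for the 10 microglial genes and 0.38 for the 5 complement genes on the log2(FPKM + 0.1) scale. It was largest for the 18 interferon genes, at 0.55, and was -0.08 for the p53 and apoptosis genes. Of these interferon genes, 10 were highest in *rd7* replicate 2, while others were low in *rd7* replicate 1 without exceeding wild-type in replicate 2. *Isg15* had 5.16 FPKM in *rd7* replicate 2 and 3.33 in replicate 1, with 6.11 and 4.11 in wild-type retinas. *Irf7* had 4.63 and 3.49, with 6.08 and 4.88 in wild-type retinas. *Vim*, the second filament of Müller cells, had 88.0 FPKM against 72.8, 55.6 and 56.6, and *Cp*, ceruloplasmin, had 43.2 against 32.5, 20.2 and 21.9.

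Between genotypes, listed genes were called about as often as all genes. In the limma comparison, 56 of 160 listed genes were called higher (35.0%) and 14 lower (8.75%), close to the 37.6% and 8.8% of all genes. With median-ratio scaling, which centres the libraries on each other, 34 were higher (21.2%) and 25 lower (15.6%), beside 19.7% and 19.6% of all genes, while the median over all genes tested shifted to -0.01 from 0.15 on the log2 scale. Of these 160 genes, 11 met the values of the rule, and the 149 others had 54 higher (36.2%) and 14 lower (9.4%). The 13 reactive Müller cell genes that did not meet the rule had 7 higher and 0 lower, with a median log2 fold change of 0.34. With median-ratio scaling these became 5 and 1, and the median 0.19. In the lists that follow, *Atf3*, *C4b*, *Serping1* and *Trem2* met the values of the rule and are counted. Immediate early genes had 5 of 21 higher and 6 lower, complement 2 of 7 higher, interferon genes 3 of 19 higher, and microglial genes 4 of 11 higher, with 0 lower in these last 3 lists. With median-ratio scaling, immediate early genes had 3 higher and 7 lower, and interferon genes 0 higher and 1 lower.

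Markers of other cells were read beside these results. The microglia and macrophage list summed to 63.5 FPKM in *rd7* replicate 2, against 49.5 in the other *rd7* pool and 41.3 and 40.7 in wild-type retinas, with 2 of its 20 genes under 0.5 FPKM everywhere. It thus moved with the 26 genes, and its part in their rise was not tested. Markers of Müller cells themselves hardly differed between the *rd7* pools, with sums of 2478 and 2457 FPKM against 2173 and 2237 in wild-type libraries. Neutrophil markers were under 0.5 FPKM in every library for 7 of 7 genes, and T cell markers for 6 of 7. Lens markers summed to 42.1 FPKM in *rd7* replicate 2, between 23.8 in *rd7* replicate 1 and 66.4 in wild-type replicate 2. Red blood cell markers summed to 147 FPKM there, above 71.0 in *rd7* replicate 1 and below 256 and 297 in wild-type libraries. Pigment epithelium markers were higher in the *rd7* pools (101 and 87.6 FPKM) than in wild-type libraries (60.5 and 43.8), and lower in replicate 2 than in replicate 1. The sums for surface epithelium (4.68 FPKM in *rd7* replicate 2), smooth muscle (17.4), striated muscle (37.8), fibroblasts (5.72) and oligodendrocytes (13.0) were each within 1.5-fold of those in *rd7* replicate 1.

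Among processes other than injury, glucocorticoid targets had 1 gene that met the rule (*Mt2*) and ribosomal proteins 1 (*Rpl26*), while circadian clock, cell cycle, histone and sex-linked genes had none. With *Mt2* left out, since the rule sets its order, *rd7* replicate 2 was the highest library for 6 of 11 glucocorticoid targets (54.5%). It was so for 7 of 15 clock genes (46.7%) and 2 of 29 histone genes (6.9%), against 35.7% of all loci. Among the marker lists of retinal neurons and Müller cells, the share ran from 1 of 11 ganglion cell genes (9.09%) to 7 of 9 amacrine cell genes (77.8%). The median difference between the *rd7* pools was 0.1 for those amacrine cell genes. A high share was thus not particular to the injury lists.

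The 26 genes lie on 15 chromosomes, and within 10 kb the only neighbours in the set were *Lad1* and *Tnnt2*, while *Nudt6* lay beside the left-out *Fgf2*. Their median exonic length was 2024 bases and that of all loci 3806. The median GC content of their longest coding transcripts was 52.3% (24 genes), against 50.4%.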

How the data were processed

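Polyadenylated RNA of 4 pools of retinas was sequenced as single reads of 50 bases on 1 lane. The authors mapped the reads to mm9 with TopHat 1.4.1 and deposited FPKM per gene and library from Cufflinks 1.3.0, with a status for each estimate. A second deposited table holds the authors' Cuffdiff comparison (pooled FPKM, fold changes, p- and q-values) and was not used. The 26 genes were found by the rule stated with the results, in loci with status OK in all 4 libraries. The members and the gene lists were chosen with earlier results of these data known.

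For the comparison of genotypes, limma 3.58.1 (R 4.3.3) was run two-sided on log2(FPKM + 0.1) where the mean FPKM reached 1, with an eBayes trend, no block and an FDR of 5% after Benjamini-Hochberg, after testing on simulated data. Calls measure only the spread between pools, whose litters and dissection days are not given in the sources used here. FPKM is not adjusted for library composition. Python 3.11.15 and scipy 1.17.1 gave the other values. Exonic length and GC content came from GENCODE vM1, of the same build, matched by symbol and position (93.8% of loci). Starts in the files count from 0 and were raised by 1.

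Reads behind a value were estimated from the lowest FPKM of single-transcript genes, times exonic kb less 200 bases, in a window of 0.017 to 0.035 chosen by eye. Named are all 26 genes, genes at the threshold, genes the rule leaves out, *Nr2e3*, and list members where a sentence is about the list. *Mt1*, *Mt3*, *Trim43a*, *Trim43b*, *Tnni1*, *Insl3*, *Slit3*, *Amd1*, *Rfx2* and *Klhl29* were named for position, sequence likeness or closeness to the rule, after values were seen. Alternatives were other folds and minima, no limit on the wild-type pair, median-ratio and quantile scaling, other pseudocounts and filters, eBayes without a trend, a replicate block and leaving out each library. A correction for GC content and length (splines, scikit-learn 1.9.0) was added after the data were examined.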

Additional observations from a re-analysis of the deposited data

How the results depend on the processing

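Scaling hardly touched the set. Median-ratio scaling gave 24 genes (23 of the 26 among them), quantile normalization 23 (23) and the GC and length correction 26 (25), with the same 8 listed genes each time, and the log2 ratio to the next library stayed between 0.76 and 3.88. The thresholds moved both counts: 49 genes and 15 listed at 1.5-fold, 11 and 3 at 2.5-fold, 252 and 13 without a minimum FPKM, and 14 and 5 at a minimum of 5 FPKM. Leaving the limit on the wild-type pair out gave 28 and 8. Without 1 library each, between 28 and 391 genes met the rule and between 8 and 19 were listed. The 391 came without *rd7* replicate 1, since genes high in both pools then enter, and no set exists without *rd7* replicate 2.

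In limma, the higher members (5) became 3 with median-ratio scaling, 2 with quantile normalization, 1 with every locus kept whatever its FPKM, 2 at a mean FPKM of at least 5, where fewer genes are tested, and 3 without a trend. For all genes, higher and lower calls were 2489 and 2483 with median-ratio scaling and 2353 and 2409 with quantile normalization. Listed genes had 34 and 25, and 32 and 24, and 8 lower without a filter and 9 without a trend. The cause was not tested.

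The replicate numbers did not pair the libraries (r = -0.0265 across 12655 genes for the deviations of the libraries numbered 1). With a replicate block, 9 members were called higher, and no other count moved by over 1.5 times. Without 1 library each, where the lone sample is assumed to vary like the others, all genes had between 1293 and 5484 higher and between 224 and 1601 lower, members between 1 and 23 higher and between 0 and 2 lower, and listed genes between 13 and 85 higher and between 2 and 26 lower. The 23 and the 85 came without *rd7* replicate 1, the 2 lower members without *rd7* replicate 2, and the 1293, 224 and 13 without wild-type replicate 1. Members called higher were 1 without wild-type replicate 1 and 1 without wild-type replicate 2. Depth limits genes such as *Glycam1*, with about 2 reads in the next library.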
